A study of Mus musculus with 161 samples.

Results

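Aminoacyl-tRNA synthetases are the enzymes that join each amino acid to its tRNA. The members described here are the 36 mouse synthetase genes listed by symbol, 20 that work in the cytosol and 16 that work in mitochondria, and all 36 were rows of the table of 43280 gene symbols. Of these, 35 were measured, meaning that 10% or more of the cells in some group were above 1 TPM, as were 14003 genes in all. Aars2, the mitochondrial alanine enzyme, was the member that missed this level. A TPM value is a transcript level per unit of transcript length scaled to a fixed total in each cell.

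The study captured single untreated cells of C57BL/6 mice on the Fluidigm C1 microfluidic system and sequenced their mRNA. The libraries came from 66 common monocyte progenitors (cMoP) of bone marrow, sorted as lineage-negative, CD117+, CD115+, CD135- and Ly6C+. A further 57 came from bone marrow (BM) monocytes, sorted in the same way but CD117-, and 38 from blood monocytes sorted as CD115+, CD11b+ and Ly6C high. No animal, age or sex is given for any cell, so each group counted as 1 sample, no test between groups was run, and the spreads below are between cells only.

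Each synthetase recognises its own amino acid and its own set of tRNAs, and a cell making protein needs all of them. The cytosolic and mitochondrial enzymes are mostly encoded by separate nuclear genes, but Kars (lysine) and Gars (glycine) each serve both compartments. Eprs carries the glutamate and proline activities in 1 polypeptide, and the phenylalanine enzyme is built of the subunits Farsa and Farsb. In mammals, Eprs, Iars, Lars, Mars, Qars, Rars, Kars and Dars are held in the multisynthetase complex with the scaffold proteins Aimp1, Aimp2 and Eef1e1. cMoP are dividing precursors committed to the monocyte lineage, and monocytes leave the marrow for the blood.

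The groups matched their sort labels in summed progenitor and monocyte genes, but not in every gene of the sort gate. Kit, the gene of CD117, was above 1 TPM in 39 of 66 cMoP and in 0 cells of both monocyte groups. Csf1r (CD115) was above 1 TPM in 56 cMoP, 46 BM monocytes and 36 blood monocytes, Flt3 (CD135) in 20, 19 and 12, and Itgam (CD11b) in 46, 48 and 31. Ly6c2 was above 1 TPM in every cell, with a difference of -2.15 for blood monocytes minus BM monocytes. The summed level of Mpo, Elane, Prtn3 and Ms4a3, progenitor genes, had a median of 17446 TPM in cMoP and 0 TPM in both monocyte groups, while that of Lyz2, Ccr2, Fn1, Csf1r and F13a1 had medians of 2032, 56272 and 57720 TPM in cMoP, BM monocytes and blood monocytes. Among markers of other cells, Cd3e and Cd3g of T cells and Ncr1 and Gzma of NK cells were listed at 0 in every cell. Of the other T cell markers, Cd3d was above 1 TPM in 15 cMoP, 13 BM monocytes and 10 blood monocytes. Lck was above 10 TPM in 3, 8 and 1 cells of these groups. Nkg7 carried most of a median of 108.8 TPM for 4 NK cell markers in cMoP, against 0 TPM in both monocyte groups, and its part in the results was not tested. Cd79b, a B cell gene, was above 10 TPM in 38 cMoP, 3 BM monocytes and 4 blood monocytes, with a difference of -3.61 for BM monocytes minus cMoP, and its part was not tested either. Summed markers of T cells, erythroid cells and neutrophils had medians from 0 to 10.58 TPM over the groups. Mmp8, of the neutrophil markers, was above 10 TPM in 4 cMoP, 26 BM monocytes and 9 blood monocytes. Its difference was 3.28 for BM monocytes minus cMoP, and its part was not tested. The number of genes above 1 TPM per cell had medians of 6662, 4719 and 4320 in cMoP, BM monocytes and blood monocytes. Of the cMoP libraries, 60 shared 1 flow cell and 6 had none in their label, and all monocyte libraries shared another flow cell, so a difference between cMoP and monocytes cannot be told apart from one between flow cells. In 11 cMoP libraries and no monocyte library, mitochondrially encoded transcripts took over 15% of the TPM.

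All 20 cytosolic synthetases were lower in BM monocytes than in cMoP by at least 1 log2 unit. Each cell's TPM was taken as log2(TPM + 1), averaged over a group and compared between groups, which understates differences of genes with low values. By the same measure 30.8% of the 14003 measured genes were lower by that much. The differences ran from -4.13 for Farsa to -1.44 for Aars, the alanine enzyme, with a median of -2.44, against a median of -0.45 over all measured genes. Of the 15 measured mitochondrial synthetases, 5 were lower by at least 1 log2 unit, a share near that of all genes, with a median of -0.87. Each of the 15 lay below 0, as did 73.5% of all measured genes. Cars2, Ears2, Nars2, Pars2, Sars2 and Vars2 reached the measured level in cMoP only. For them the filter itself favoured a difference below 0, so their sign adds little. The count of cytosolic members stayed at 20 when the 11 cMoP libraries rich in mitochondrial transcripts or the 6 with no flow cell were left out, with medians of -2.74 and -2.36. In these selections 35.1% and 28.4% of all measured genes were lower by that much, with medians of -0.53 and -0.38.

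**Figure D1:**
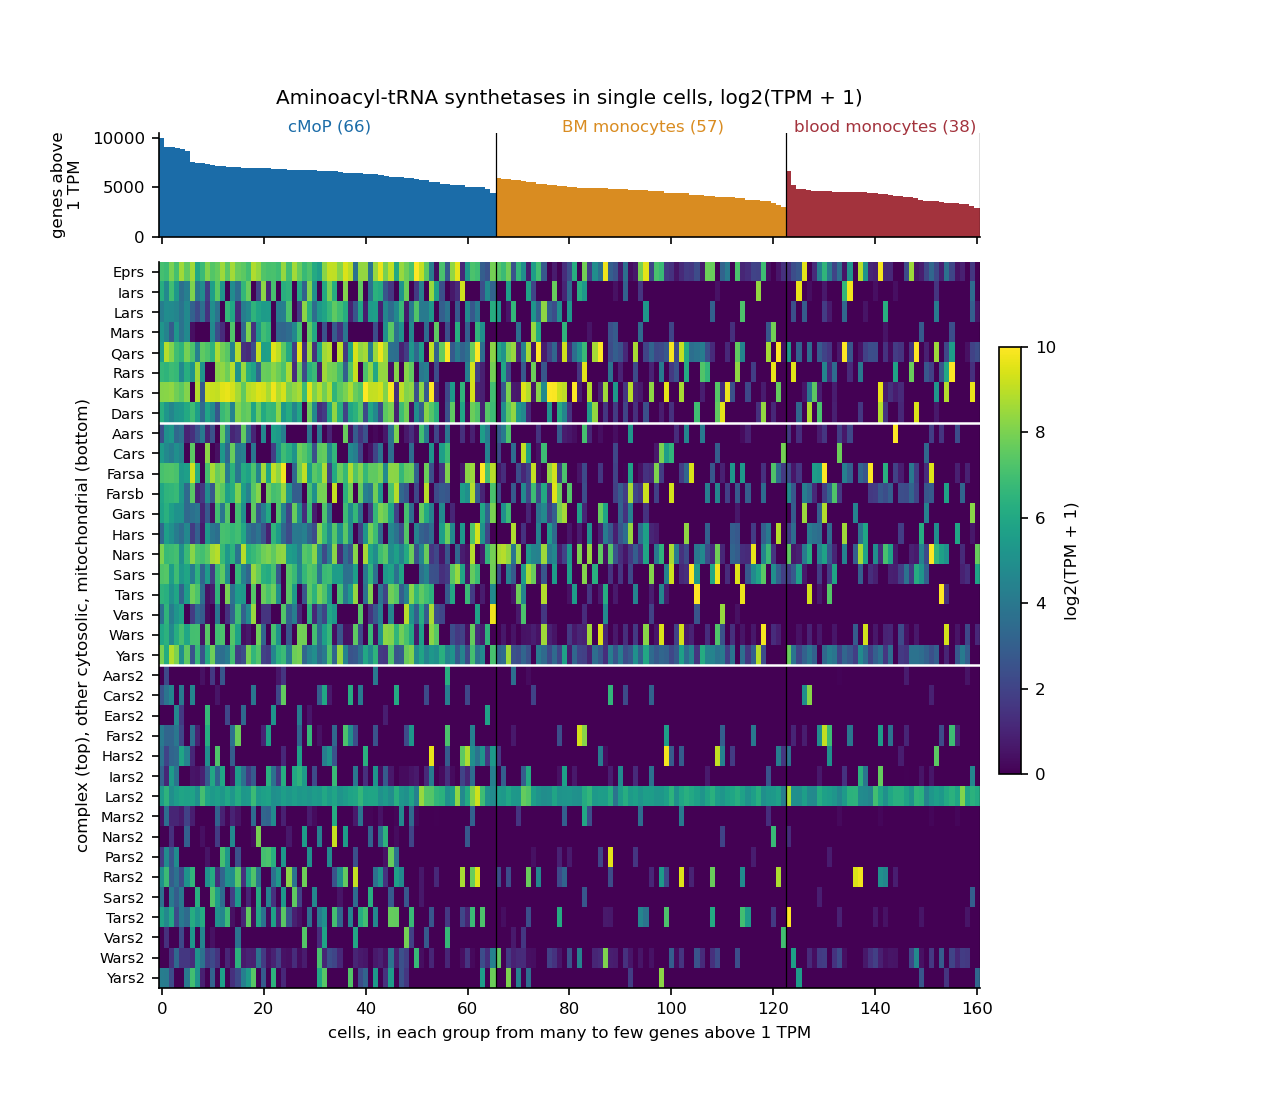
The heat map shows log2(TPM + 1) of the 36 synthetases (rows) in each of the 161 cells (columns), grouped as cMoP, BM monocytes and blood monocytes and ordered within a group by the number of genes above 1 TPM, drawn as bars on top; the colour scale ends at 10. Cytosolic rows are filled in most cMoP and patchy in monocytes, and Lars2 is filled in every cell.

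The difference was visible in single cells. In cMoP a cell held a median of 13.5 of the 20 cytosolic synthetases above 10 TPM, with a lowest value of 4 and a highest of 20. In BM monocytes the median was 5, from 0 to 10, and in blood monocytes it was 3, from 0 to 8. All 57 BM monocytes and all 38 blood monocytes lay below 11, the lower quartile of cMoP, and 20 of the 57 BM monocytes and 23 of the 38 blood monocytes lay below the lowest cMoP. The ranges overlapped, because some cMoP held as few synthetases as monocytes did. Of the cells with none above 10 TPM, 1 was a BM monocyte and 2 were blood monocytes. The number of all genes above 1 TPM per cell was likewise lower in monocytes. Its highest value in BM monocytes was 5938, its upper quartile in blood monocytes 4579 and its lower quartile in cMoP 5964. In cells of a like number of genes, described further on, the median was 5 synthetases in BM monocytes and 7 in cMoP. It was 5 and 13 when libraries rich in mitochondrial or poor in ribosomal protein transcripts were left out.

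From cMoP to BM monocytes the summed level of the 20 cytosolic genes moved less than their number, but not from BM to blood monocytes. Its median was 2065 TPM for the cMoP (541.5 to 5318), 1152 for the BM monocytes (21.52 to 2981) and 592.9 for the blood monocytes (13.26 to 2232). Of the 57 BM monocytes, 18 lay below the lowest cMoP, and 53 lay below the cMoP median. Monocytes therefore spanned a wider range of totals on the low side, while their upper cells reached cMoP levels.

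**Figure D2:**
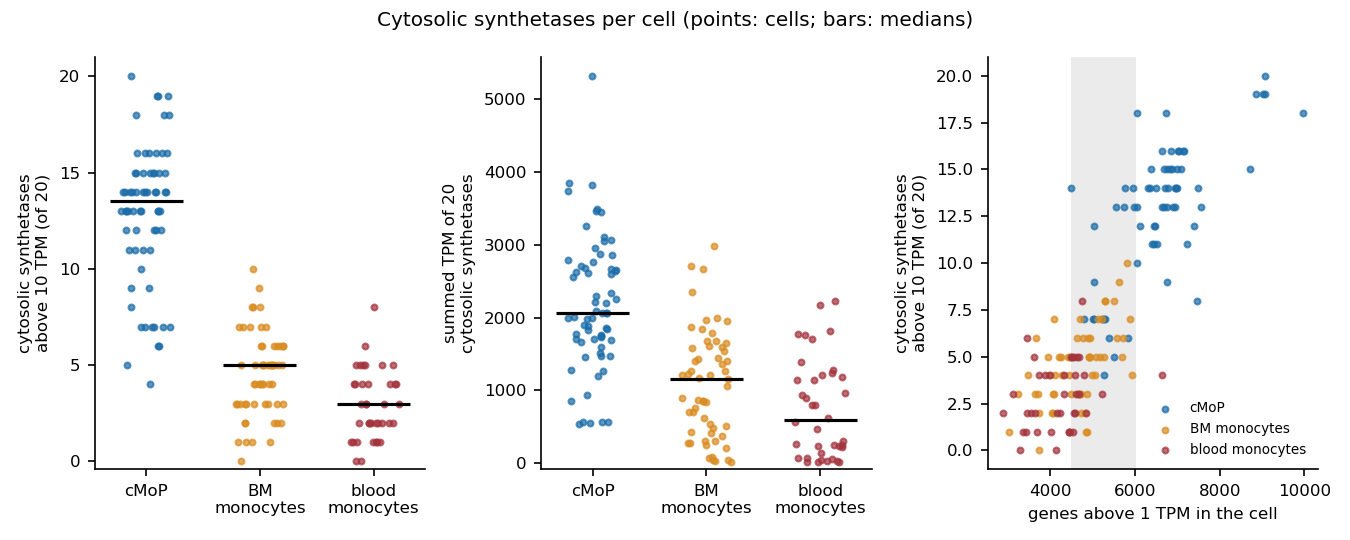
The left panel counts the cytosolic synthetases above 10 TPM in each cell, the middle panel gives their summed TPM, and the right panel sets the count against the number of genes above 1 TPM in the same cell, with the range of 4500 to 6000 genes shaded. Points are cells and bars are medians: 13.5, 5 and 3 synthetases in cMoP, BM monocytes and blood monocytes.

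Members of the multisynthetase complex had, on the median, larger differences than the other cytosolic genes. Their median difference, BM monocytes minus cMoP, was -3.18 over 8 genes, against -2.30 over the 12 cytosolic genes outside the complex. Eprs was the most widely held cytosolic gene in cMoP. It was above 10 TPM in 61 of 66 cMoP (92.4%, exact Clopper-Pearson 95% interval 83.2 to 97.5%), 22 of 57 BM monocytes (38.6%, 26 to 52.4%) and 11 of 38 blood monocytes (28.9%, 15.4 to 45.9%). These intervals cover the counting of cells only. Its median level was 182.8 TPM for the cMoP (0.31 to 1152), 3.96 for the BM monocytes (0 to 867.8) and 2.59 for the blood monocytes (0 to 929.8). The mean log2 level of Eprs was 3.37 ± 2.95 in BM monocytes and 7.19 ± 1.98 in cMoP (SD over 57 and 66 cells), a difference of -3.82 that exceeded either SD.

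Kars had the highest mean level of all synthetases in cMoP and in BM monocytes. Its median was 299.2 TPM for the cMoP (0 to 1808), 0.75 for the BM monocytes (0 to 1832) and 0 for the blood monocytes (0 to 821.9). It was above 10 TPM in 53 cMoP, 20 BM monocytes and 6 blood monocytes, and its differences were -3.75 for BM monocytes minus cMoP and -1.97 for blood monocytes minus BM monocytes. The gene lies at chr8:111993443-112011323 on the minus strand of GRCm38. The ranges of both bone marrow groups overlapped in full, and in cells of a like number of genes, described further on, Kars was higher by 0.24 in BM monocytes, with a difference of -2.09 without the libraries rich in mitochondrial or poor in ribosomal protein transcripts.

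Rars (arginine), Dars (aspartate) and Iars (isoleucine) followed with differences of -3.60, -3.34 and -3.01. Rars was above 10 TPM in 45 cMoP, 10 BM monocytes and 8 blood monocytes, with a highest cell of 647.9, 785.7 and 2116 TPM. Dars was above 10 TPM in 50 cMoP, 14 BM monocytes and 4 blood monocytes, with a median of 57.81 TPM in cMoP and 0 TPM in both monocyte groups. Iars was above 10 TPM in 38 cMoP, 7 BM monocytes and 4 blood monocytes. Each of the 3 was at 0 TPM in the median monocyte, yet for each of them the highest cell of at least 1 monocyte group exceeded the highest cMoP.

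Lars (leucine), Qars (glutamine) and Mars (methionine, the amino acid that starts each protein) complete the complex. Lars was above 10 TPM in 45 cMoP, 8 BM monocytes and 2 blood monocytes, a difference of -2.91 for BM monocytes minus cMoP. Qars had medians of 89.84, 4.75 and 1.85 TPM in cMoP, BM monocytes and blood monocytes and differed by -2.25 between BM monocytes and cMoP. Mars was above 10 TPM in 27 cMoP, 5 BM monocytes and 0 of 38 blood monocytes, where 3 cells would be 7.89%. Exons of Mars overlap those of Ddit3, a stress-response transcription factor gene, on the other strand, and the Nextera XT libraries do not mark strand, so reads in the overlap cannot be told apart. Ddit3 was above 10 TPM together with Mars in 7 cMoP, 1 BM monocyte and 0 blood monocytes, and alone in 9, 13 and 7 cells of these groups.

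**Figure D3:**
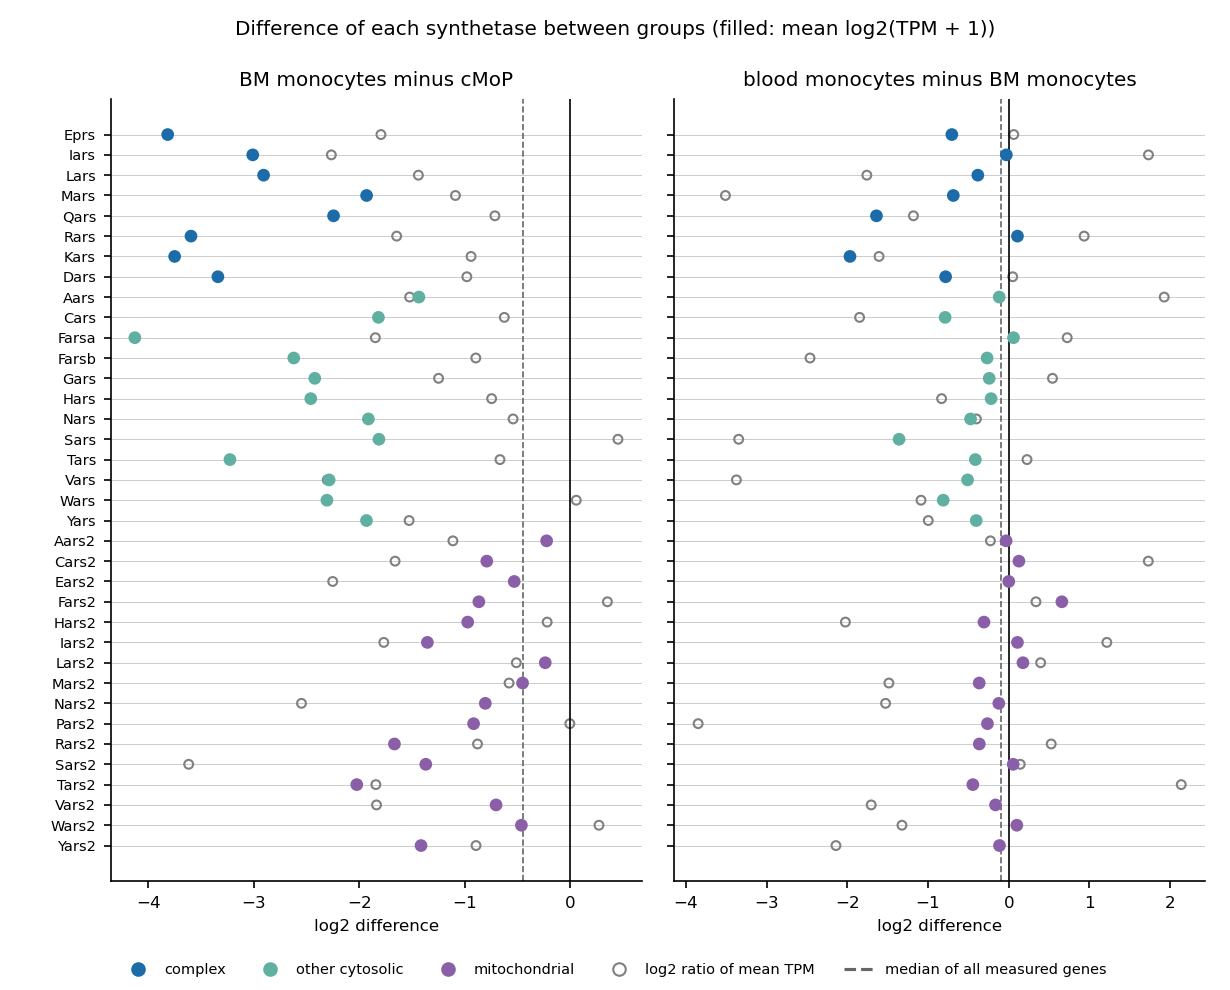
Each row is 1 synthetase, complex members first, then other cytosolic and mitochondrial genes. Filled points give the difference in mean log2(TPM + 1) and open points the log2 ratio of mean TPM, for BM monocytes minus cMoP (left) and blood monocytes minus BM monocytes (right), with all measured genes' median dashed. On the left all filled cytosolic points lie between -4.13 and -1.44. Aars2 is drawn although it was not measured by the rule above.

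The subunit genes of the phenylalanine enzyme, which needs both, were each above 10 TPM in few monocytes. Farsa, the alpha subunit gene at chr8:84856989-84869257 on the plus strand, was above 10 TPM in 54 cMoP, 10 BM monocytes and 8 blood monocytes. Its median was 137.7 TPM for the cMoP (0 to 1053), 0.51 for the BM monocytes (0 to 687.9) and 0.655 for the blood monocytes (0 to 1235). Farsb, the beta subunit gene, was above 10 TPM in 40, 12 and 5 cells of these groups, with differences of -2.62 for BM monocytes minus cMoP and -0.27 for blood monocytes minus BM monocytes. Both subunits passed 10 TPM in 38 of the 66 cMoP, in 3 of the 57 BM monocytes and in 0 of the 38 blood monocytes. With each gene above 10 TPM in so few monocytes, a low joint count there says nothing further about their pairing. A value of 0 may stand for a transcript that was not captured or not estimated, and says nothing about the protein.

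Among the other cytosolic genes, Tars (threonine) had the next difference after Farsa, at -3.23. It was above 10 TPM in 43 cMoP, 9 BM monocytes and 3 blood monocytes, with medians of 39.7, 0 and 0 TPM. Gars was above 10 TPM in 38 cMoP, 10 BM monocytes and 5 blood monocytes, a difference of -2.42 for BM monocytes minus cMoP. The dual-compartment genes Kars and Gars were both above 10 TPM in 34 cMoP, 7 BM monocytes and 1 blood monocyte. Both are themselves among the 20 cytosolic genes, so sharing that list's direction is no separate result. Against the list's median of -2.44 for BM monocytes minus cMoP, Gars lay near it and Kars, at -3.75, well below it.

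Wars (tryptophan), which is induced by interferon in human cells, and Sars (serine) showed how much the summary matters. Wars was above 10 TPM in 36 cMoP, 8 BM monocytes and 2 blood monocytes, but the median of those cells was 126.9 TPM among the cMoP, 515.4 among the BM monocytes and 648.3 among the blood monocytes. Its difference of mean log2 level was -2.31 for BM monocytes minus cMoP, while its log2 ratio of mean TPM was 0.055, from means of 74.83 for the BM monocytes and 72.0 for the cMoP. Sars was above 10 TPM in 48 cMoP, 20 BM monocytes and 6 blood monocytes, with a difference of -1.81 and a log2 ratio of mean TPM of 0.45 for BM monocytes minus cMoP. For both genes few monocytes with high values carried the mean.

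The remaining cytosolic genes were Hars (histidine), Vars (valine), Yars (tyrosine), Nars (asparagine), Cars (cysteine) and Aars, with differences from -2.46 for Hars to -1.44 for Aars between BM monocytes and cMoP. Nars was the member most often kept, above 10 TPM in 51 cMoP, 27 BM monocytes and 17 blood monocytes. Yars kept a low level in most cells, with medians of 26.3, 7.5 and 7.265 TPM in cMoP, BM monocytes and blood monocytes. Vars passed 1 TPM in 42 of the 66 cMoP and in 7 of the 57 BM monocytes, and was listed at 0 in all 38 blood monocytes. Aars and Cars were each above 10 TPM in 1 blood monocyte.

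**Figure D4:**
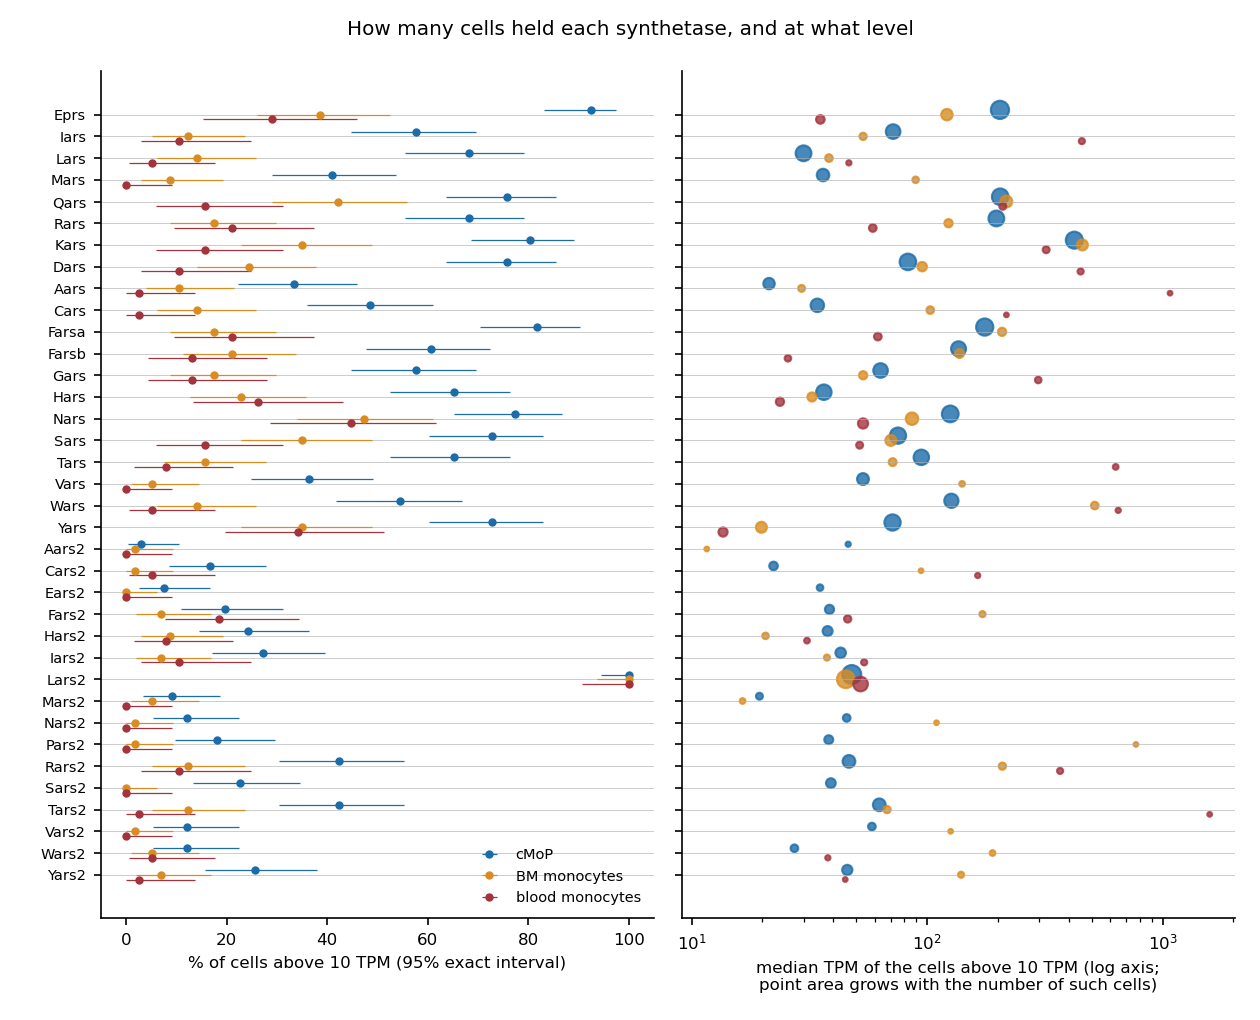
The left panel gives for each synthetase the percentage of cells above 10 TPM with its exact 95% interval, and the right panel the median TPM of those cells on a log axis, with point area growing with their number. In the left panel cMoP lie to the right of both monocyte groups for all members but Lars2, whereas in the right panel the groups are mixed.

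Over the 20 cytosolic genes, the share of cells above 10 TPM was lower in BM monocytes than in cMoP for all 20, with median shares of 17.5% in BM monocytes and 66.7% in cMoP. This share was not counted over all measured genes. By mean log2 level, 73.5% of all measured genes were lower in BM monocytes. The level in the cells that passed 10 TPM was lower in BM monocytes for 9 genes and higher for 11, with medians over genes of 92.4 TPM for the BM monocytes and 79.1 TPM for the cMoP. The shares thus all pointed one way, and the levels of the cells that held a transcript did not. In libraries that lose transcripts at capture, a lower level in each cell and fewer cells with the transcript cannot be told apart.

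In mammals, lack of amino acids raises the transcription factor ATF4, which induces a number of cytosolic synthetase genes, so the promoters were searched for its composite site with C/EBP factors. Windows of 300 bases (250 before and 50 after the start, RefSeq, GRCm38.p6) of 13 of the 20 cytosolic and 14 of the 16 mitochondrial genes were used here. The letters TGATGNAA, on either strand, were found in 5 of the 13 cytosolic windows (Iars, Aars, Gars, Tars and Yars) and 0 of the 14 mitochondrial ones, against 3.97% of all 32851 windows. These 5 windows are printed because the motif set them apart among the synthetases, and capitals mark the match. They are chr13:49681880-49682179 on the plus strand for Iars, chr8:111033592-111033891 on the plus strand for Aars, chr6:55037751-55038050 on the plus strand for Gars, chr15:11399609-11399908 on the minus strand for Tars and chr4:129189653-129189952 on the plus strand for Yars.
Iars: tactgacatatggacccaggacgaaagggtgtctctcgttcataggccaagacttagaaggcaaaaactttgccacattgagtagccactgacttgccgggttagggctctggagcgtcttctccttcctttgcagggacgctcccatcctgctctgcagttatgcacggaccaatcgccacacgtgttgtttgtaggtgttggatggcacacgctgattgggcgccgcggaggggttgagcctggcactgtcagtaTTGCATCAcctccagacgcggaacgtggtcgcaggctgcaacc
Aars: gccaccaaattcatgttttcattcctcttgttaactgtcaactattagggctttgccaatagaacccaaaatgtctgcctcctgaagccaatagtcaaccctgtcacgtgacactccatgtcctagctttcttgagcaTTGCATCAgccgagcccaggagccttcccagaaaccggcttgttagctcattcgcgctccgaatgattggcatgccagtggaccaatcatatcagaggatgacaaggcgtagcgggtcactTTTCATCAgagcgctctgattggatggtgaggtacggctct
Gars: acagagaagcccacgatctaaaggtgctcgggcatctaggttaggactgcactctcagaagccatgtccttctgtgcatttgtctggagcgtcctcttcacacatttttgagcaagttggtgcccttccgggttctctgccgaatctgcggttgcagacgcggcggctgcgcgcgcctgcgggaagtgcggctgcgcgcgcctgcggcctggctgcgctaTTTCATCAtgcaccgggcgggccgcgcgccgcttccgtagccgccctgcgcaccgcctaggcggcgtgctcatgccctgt
Tars: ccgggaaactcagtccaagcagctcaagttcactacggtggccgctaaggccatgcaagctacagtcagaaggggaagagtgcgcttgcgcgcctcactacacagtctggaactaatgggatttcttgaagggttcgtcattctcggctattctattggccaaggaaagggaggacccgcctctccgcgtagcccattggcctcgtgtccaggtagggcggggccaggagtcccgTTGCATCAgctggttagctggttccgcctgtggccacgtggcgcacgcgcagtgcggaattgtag
Yars: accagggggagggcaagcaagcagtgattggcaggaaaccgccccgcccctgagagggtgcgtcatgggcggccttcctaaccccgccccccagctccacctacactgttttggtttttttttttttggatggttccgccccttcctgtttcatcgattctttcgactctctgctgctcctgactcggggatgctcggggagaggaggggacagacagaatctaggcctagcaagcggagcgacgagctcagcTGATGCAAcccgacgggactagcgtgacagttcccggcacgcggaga

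The matches began at base 258 of the window for Iars, at bases 139 and 260 for Aars, at 221 for Gars, at 236 for Tars and at 254 for Yars, counted from 1 at the 5′ end. Genes with the motif had a median difference of -2.42 for BM monocytes minus cMoP, and the 8 cytosolic genes with a window and no match had -2.98. Having the letters did not go with a larger difference. The E box CACGTG, read by MYC and related factors, was in 4 of 13 cytosolic windows (Iars, Aars, Farsb and Tars) and 1 of 14 mitochondrial ones (Ears2), against 7.15% of all windows. The ETS letters ACTTCCGG were in 2 of 13 cytosolic windows and 1 of 14 mitochondrial ones, against 3.89% of all. No match in the members' windows overlapped a match of another motif, and a match shows the letters, not binding.

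The letters GCGCATGC, the core of the site of NRF1, a factor of many nuclear genes for mitochondrial proteins, were in 0 of 13 cytosolic windows and 3 of 14 mitochondrial ones (Rars2, Vars2 and Wars2), against 2.71% of all windows. The window of Vars2, the mitochondrial valine enzyme, held the letters at bases 205 and 231 and is printed as the window with more than 1 match, at chr17:35667543-35667842 on the minus strand.
Vars2: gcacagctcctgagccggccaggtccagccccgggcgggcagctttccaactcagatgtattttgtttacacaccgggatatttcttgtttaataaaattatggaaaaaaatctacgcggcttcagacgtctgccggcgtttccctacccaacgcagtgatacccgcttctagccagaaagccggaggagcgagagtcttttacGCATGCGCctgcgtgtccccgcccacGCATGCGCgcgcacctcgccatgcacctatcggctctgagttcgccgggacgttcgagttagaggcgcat

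The mitochondrial synthetases other than Lars2 passed 10 TPM in at most 42.4% of the cMoP, the share of Tars2 and Rars2. Over these 15 genes, 5.26% of the BM monocytes and 18.2% of the cMoP were above 10 TPM for the median member, and the share was lower in BM monocytes for all 15. The like count over all measured genes was not taken. Cars2, Ears2, Nars2, Pars2, Sars2 and Vars2 reached the measured level in cMoP only, and Aars2 in no group, so their lower shares add little. Their summed level without Lars2 had a median of 218.2 TPM for the cMoP (0 to 904.2), 13.51 for the BM monocytes (0 to 1094) and 11.86 for the blood monocytes (0 to 1598). The medians were apart and the ranges overlapped in full, since single monocytes held 1 of these transcripts at a high level. Levels this low give the pseudocount more weight, which shrinks their differences more than those of the cytosolic genes.

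The 5 mitochondrial genes lower in BM monocytes than in cMoP by at least 1 log2 unit were Tars2 (threonine), Rars2 (arginine), Yars2 (tyrosine), Sars2 (serine) and Iars2 (isoleucine). Tars2 was above 10 TPM in 28 cMoP, 7 BM monocytes and 1 blood monocyte, with a difference of -2.02 for BM monocytes minus cMoP. The 1 blood monocyte stood at 1585 TPM, which alone put the mean of Tars2 in blood monocytes at 41.77 TPM, against 33.91 TPM in cMoP. Rars2 was above 10 TPM in 28 cMoP, 7 BM monocytes and 4 blood monocytes, a difference of -1.67. Yars2 and Iars2 differed by -1.42 and -1.36, and Sars2 by -1.37. In cells with 4500 to 6000 genes Yars2 was higher in BM monocytes by 0.37. Among those cells, without libraries rich in mitochondrial or poor in ribosomal protein transcripts, both Yars2 (0.46) and Iars2 (0.18) were higher in BM monocytes.

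Sars2 was above 10 TPM in 15 of 66 cMoP (22.7%, 13.3 to 34.7%) and in no monocyte of either group. The highest cell stood at 184.4 TPM among the cMoP, 5.54 among the BM monocytes and 7.21 among the blood monocytes. Ears2, the mitochondrial glutamate enzyme, was above 1 TPM in 8 cMoP and listed at 0 in all 57 BM monocytes and all 38 blood monocytes, where 3 cells would be 5.26% and 7.89%. Its exons overlap those of Ubfd1 on the other strand, and Ubfd1 was above 1 TPM in 53 cMoP, 13 BM monocytes and 5 blood monocytes. Of all 36 members, 13 have an exon overlap with a gene on the other strand in the GENCODE annotation and 23 do not, and Farsa, Eprs, Kars and Rars are among those with none.

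The other mitochondrial members were Cars2, Fars2, Hars2, Lars2, Mars2, Nars2, Pars2, Vars2 and Wars2, which charge cysteine, phenylalanine, histidine, leucine, methionine, asparagine, proline, valine and tryptophan. Their differences for BM monocytes minus cMoP ran from -0.97 for Hars2 to -0.24 for Lars2. Fars2 was above 10 TPM in 13 cMoP, 4 BM monocytes and 7 blood monocytes. Aars2, below the level called measured, was above 1 TPM in 6 cMoP, 1 BM monocyte and 0 blood monocytes.

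Lars2 stood apart from every other member. It was above 10 TPM in all 161 cells, with a median of 47.91 TPM for the cMoP (19.74 to 624.9), 45.2 for the BM monocytes (12.96 to 196.7) and 52.24 for the blood monocytes (21.12 to 427.6). Its mean log2 level was 5.83 ± 0.92 for the 66 cMoP, 5.60 ± 0.62 for the 57 BM monocytes and 5.77 ± 0.92 for the 38 blood monocytes (SD over cells). The groups overlapped almost fully, and the differences of -0.24 for BM monocytes minus cMoP and 0.18 for blood monocytes minus BM monocytes were smaller than the SD between cells. The gene lies at chr9:123366927-123462666 on the plus strand.

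A synthetase transcript present in every cell at a narrow level was set beside ribosomal RNA, since 2 of 5 listed ribosomal RNA rows were in the table. Gm26917, the 1 of them that was measured, had medians of 116.7, 32.9 and 5.74 TPM in cMoP, BM monocytes and blood monocytes, with differences of -1.79 and -1.84 between successive groups. Within groups the Spearman correlation of Lars2 with Gm26917 over cells was 0.17 for the cMoP, -0.15 for the BM monocytes and 0.15 for the blood monocytes, as a description of cells that share a library preparation. Lars2 did not follow this row, and what else the Lars2 values may hold was not tested.

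Between blood monocytes and BM monocytes the median cytosolic difference of mean log2 level was smaller than between BM monocytes and cMoP, at -0.44 and -2.44. The median log2 ratios of mean TPM lay closer together, at -0.91 for blood over BM monocytes and -1.04 for BM monocytes over cMoP. By mean log2 level, of the 20 cytosolic genes, 3 were lower by at least 1 log2 unit in blood monocytes (Kars -1.97, Qars -1.64 and Sars -1.36), against 9.66% of all measured genes. All measured genes had a median of -0.10, and 18 of the cytosolic genes lay below 0, against 59.8% of all genes. Rars (0.11) and Farsa (0.06) were the 2 above 0. No mitochondrial member was lower by that much, with a median of -0.11 over 15 genes, of which 8 lay below 0 and 6 above. By the ratio of means, 9 cytosolic and 7 mitochondrial genes were lower by that much, against 23.5% of all measured genes.

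Among these genes Qars passed 10 TPM in 6 of the 38 blood monocytes (15.8%, 6.02 to 31.2%) and in 24 of the 57 BM monocytes (42.1%, 29.1 to 55.9%). Sars was above 10 TPM in 6 blood monocytes and 20 BM monocytes, with a highest cell of 71.82 TPM among the blood monocytes and 1277 among the BM monocytes. The next differences were Wars at -0.81, Cars at -0.79, Dars at -0.78, Eprs at -0.70 and Mars at -0.69, and each of these, like the 3 larger ones, was smaller than the SD between BM monocytes. Fars2 had the largest difference of the mitochondrial genes, 0.66, with 7 of 38 blood monocytes and 4 of 57 BM monocytes above 10 TPM, and Tars2, Mars2 and Rars2 followed at -0.44, -0.37 and -0.36. Leaving out the libraries in which ribosomal protein transcripts took under 5% of the TPM (11 blood and 9 BM monocytes) raised the count of cytosolic genes lower by 1 log2 unit to 5, against 10.4% of all measured genes.

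Blood monocytes minus cMoP is the sum of the 2 steps and shares its cells with them. All 20 cytosolic and 7 of 15 mitochondrial genes were lower in blood monocytes by at least 1 log2 unit, with medians of -3.08 and -0.93, against 37.7% of all measured genes and a median of -0.58. The largest differences were Kars at -5.72, Eprs at -4.52, Dars at -4.12 and Farsa at -4.07. In Kars both steps contributed, while in Farsa and Rars the second step was above 0.

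Because cMoP libraries held more genes, cells with 4500 to 6000 genes above 1 TPM were also compared, 33 BM monocytes and 17 cMoP. In these the cytosolic count was 12 of 20 and the median -1.26, against 12.9% of all genes and a median of -0.05. The median number of cytosolic synthetases above 10 TPM was 5 in BM monocytes (1 to 10) and 7 in cMoP (4 to 14). Kars (0.24) and Nars (0.83) were higher in BM monocytes there. Without the libraries rich in mitochondrial or poor in ribosomal protein transcripts, 29 BM monocytes and 7 cMoP were left. The count was 16 of 20 and the median -2.00, against 24.1% of all genes. The median number of synthetases was 5 in BM monocytes (1 to 10) and 13 in cMoP (7 to 14). The cMoP still held more genes, with a median of 5292, and of 5736 without those libraries, against 4970 in BM monocytes both times. The direction of the cytosolic list held in both selections, but its size depended on which cMoP were kept, and Cars (0.52) was then higher in BM monocytes.

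The partners of the synthetases had the same direction, and the counts below are of genes lower by at least 1 log2 unit, as 30.8% of all measured genes were. All 3 scaffold genes of the multisynthetase complex were lower by that much in BM monocytes than in cMoP, with Aimp2 at -3.67, Eef1e1 at -3.64 and Aimp1 at -2.17. Of 7 genes that deliver, proofread or export cytosolic tRNA, 6 were lower by that much, among them Eef1g (-3.57), a subunit of the exchange factor of the elongation factor, Aarsd1 (-3.23), which edits mischarged alanine tRNA, and Dtd1 (-3.22), which removes D-amino acids from tRNA. Eef1a1, the elongation factor that carries charged tRNA to the ribosome, was lower by less, at -0.20, with medians of 9518, 6826 and 5312 TPM in cMoP, BM monocytes and blood monocytes. Of 10 partners in mitochondrial translation 7 were lower by that much and the other 3 by less, led by the elongation factor gene Tufm (-3.51) and its exchange factor Tsfm (-2.51). In the selenocysteine pathway, which remakes serine on its tRNA, 4 of 5 genes were lower by that much, and Secisbp2 stood at -0.49. Sepsecs and Sephs2 of this pathway, Gatb of the mitochondrial partners and Xpot of the cytosolic tRNA genes reached the measured level in cMoP only. For them the filter itself favoured a difference below 0, so their part in these counts adds little.

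**Figure D5:**
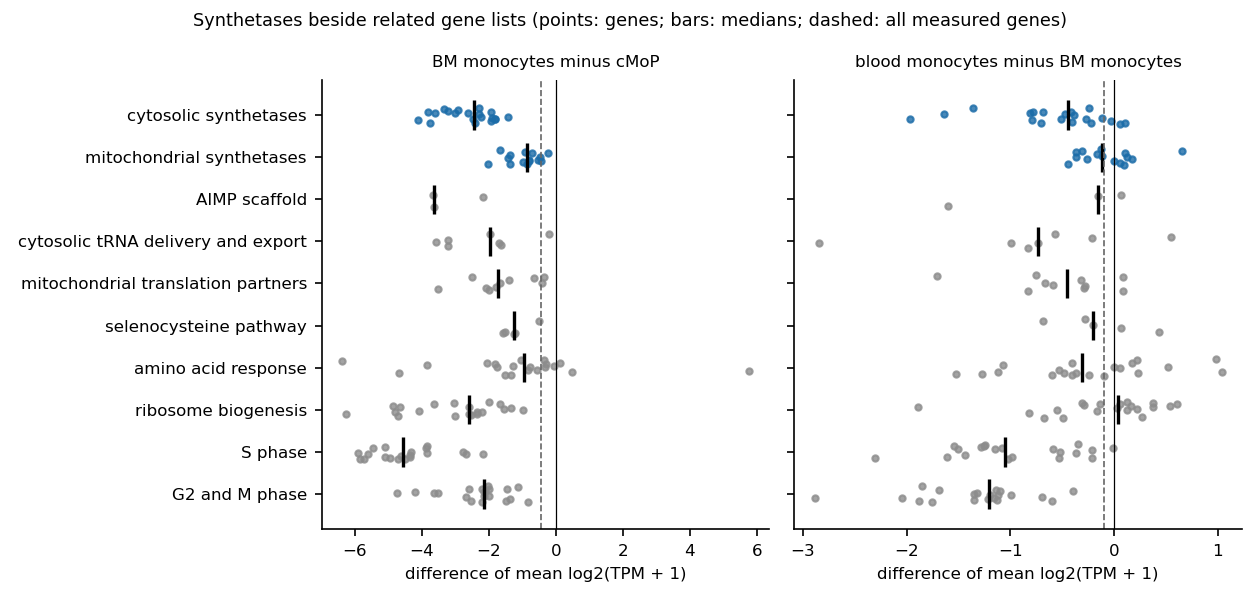
Points are the measured genes of each list, bars their medians and the dashed line the median of all measured genes, for BM monocytes minus cMoP (left) and blood monocytes minus BM monocytes (right), as differences of mean log2(TPM + 1). The median of the cytosolic synthetases was -2.44 on the left, close to that of ribosome biogenesis at -2.59.

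Genes of amino acid supply and of growth were set beside the synthetases. Of 20 measured genes of the amino acid response, 10 were lower in BM monocytes by at least 1 log2 unit, against 30.8% of all measured genes, and 1 was higher by that much, as were 552 of the 14003 measured genes. The serine synthesis genes Phgdh (-6.39) and Psat1 (-4.68) and the serine-to-glycine enzyme Shmt2 (-3.85) were the lowest, whereas Nupr1, a stress-response gene, stood at 5.76. Atf4 itself had medians of 61.32, 14.27 and 2.64 TPM in cMoP, BM monocytes and blood monocytes, with a difference of -0.35 for BM monocytes minus cMoP, while its mean was 157.1 TPM for the BM monocytes and 87.67 TPM for the cMoP. The list thus had members in both directions, unlike the cytosolic synthetases. Of its genes, Phgdh, Asns, Slc7a5, Slc7a1, Aldh18a1 and Eif2ak4 reached the measured level in cMoP only. For them, too, the filter favoured a difference below 0.

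Of 20 genes each, 19 of ribosome biogenesis, 20 of S phase and 19 of the G2 and M phases were lower in BM monocytes than in cMoP by at least 1 log2 unit, against 30.8% of all measured genes, with medians of -2.59, -4.56 and -2.15. Between blood monocytes and BM monocytes the medians were 0.04, -1.05 and -1.20, against -0.44 for the cytosolic synthetases. Cell division genes were therefore lower again in blood, ribosome biogenesis genes were not, and the synthetases lay between them. How many ribosome biogenesis and cell division genes reached the measured level in cMoP only was not counted.

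Within groups, the mean log2 level of the 20 cytosolic genes in a cell went with the number of genes in that cell, with Spearman correlations of 0.585 for the cMoP, 0.586 for the BM monocytes and 0.394 for the blood monocytes. With the S phase genes the correlations were 0.57, 0.42 and -0.31, with those of the G2 and M phases 0.26, 0.29 and 0.57, and with ribosome biogenesis genes they were 0.53, 0.31 and 0.27. With the share of mitochondrially encoded TPM it was -0.39 in cMoP, where the 11 libraries over 15% held a median of 7 cytosolic synthetases above 10 TPM and the other 55 held 14. The 6 cMoP with no flow cell in their label held a median of 19. All such values share the number of genes captured per cell, and are given as descriptions of 66, 57 and 38 cells.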

How the data were processed

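The deposited table holds TPM, 1 column per cell. Per the submitters' processing notes the authors used RSEM 1.2.19 and the mouse build GRCm38. The aligner is not given in the sources used here, nor is the annotation. Per the labels' protocols, cells were captured on C1 chips, cDNA was primed with oligo(dT) and libraries were made with Nextera XT. Columns summed to 997939 to 999955 TPM. TPM keeps no read depth, so depth is unknown. Genes above 1 TPM were counted per cell in its place.

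All 161 columns were matched to samples by title and grouped by the labels. Values were taken as log2(TPM + 1) and averaged over the cells of a group, and the earlier stage's mean was subtracted from the later one's. With 1 sample per group no model was fitted. Shares of cells carry exact Clopper-Pearson 95% intervals, and for 0 cells the share that 3 cells would make is given. Described were, per comparison, the 8 cytosolic and 4 mitochondrial members with the largest differences, with Eprs, Kars, Gars, Farsa, Farsb, Wars and Lars2, and up to 4 genes per companion list. Of the other genes, Atf4, Ddit3 and Ubfd1, the marker genes, and members outside the rule were named after their values were seen. So were companion genes named for reaching the measured level in cMoP only. Members and lists were chosen with earlier results of these data known. Gene positions and overlaps are from GENCODE on GRCm38, and promoters from RefSeq on GRCm38.p6. Tools were Python 3.11.15, pandas 2.3.3, numpy 2.4.6 and scipy 1.17.1, and the calculation was tested on simulated data. The 12 alternatives tried covered pseudocounts, scaling, filters and sets of libraries.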

Additional observations from a re-analysis of the deposited data

How the results depend on the processing

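No paired analysis was possible because the labels name no animal and each group counted as 1 sample. The 12 alternatives kept the sign of the cytosolic and mitochondrial medians between monocytes and cMoP. With a pseudocount of 0.1 TPM, for BM monocytes minus cMoP the cytosolic median was -3.86 and the mitochondrial one -1.47 with 13 genes lower by 1 log2 unit, against 45.8% of all measured genes and a median of -0.84 over them. For blood monocytes minus BM monocytes 7 cytosolic genes were lower by that much, against 18.1% of all measured genes. For blood monocytes minus cMoP the medians were -4.67 and -1.79, with 11 mitochondrial genes, against 52.1% of all measured genes. With 10 TPM the cytosolic medians were -1.23 and -1.56 for BM and blood monocytes against cMoP. The mitochondrial counts were 0 and 1, against 12% and 17.2% of all measured genes.

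By the log2 ratio of mean TPM, for BM monocytes minus cMoP the cytosolic median was -1.04 with 10 genes, against 23.9% of all measured genes. Sars (0.45) and Wars (0.055) changed sign, as did Fars2 (0.35) and Wars2 (0.27), whose differences were under 1 log2 unit. For blood monocytes minus BM monocytes the medians were -0.91 and 0.00, and 9 cytosolic and 7 mitochondrial genes were lower by 1 log2 unit, against 23.5% of all measured genes. For blood monocytes minus cMoP the cytosolic median was -1.66 with 13 genes, against 32.7% of all measured genes, and the mitochondrial median was -2.07. There Tars2 (0.29), Aars (0.40), Fars2 (0.69) and Cars2 (0.07) changed sign. Single cells with high values weigh more in this ratio.

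In cells with 4500 to 6000 genes, the cytosolic median for BM monocytes minus cMoP was -1.26 with 12 genes. The mitochondrial median was -0.28 with 3 genes, and 12.9% of all measured genes were lower by that much. Kars (0.24), Nars (0.83) and Yars2 (0.37) changed sign. For blood monocytes minus BM monocytes 5 cytosolic genes were lower, against 13.6% of all measured genes. For blood monocytes minus cMoP the medians were -1.85 and -0.28 with 4 mitochondrial genes, against 20.3% of all measured genes. When libraries rich in mitochondrial or poor in ribosomal protein transcripts were also left out, Cars (0.52), Iars2 (0.18) and Yars2 (0.46) changed sign for BM monocytes minus cMoP. Then 5 cytosolic genes were lower for blood monocytes minus BM monocytes, against 14.1% of all measured genes. For blood monocytes minus cMoP the medians were -2.37 and -0.29, with 4 mitochondrial genes, against 29.9% of all measured genes, and Yars2 at 0.33. Leaving out libraries poor in ribosomal protein transcripts alone gave 5 cytosolic genes for blood monocytes minus BM monocytes, against 10.4% of all measured genes. The causes were not tested. Median-ratio scaling put the median of all measured genes for blood monocytes minus cMoP at -0.47, against -0.58, and left the cytosolic counts at 20. By this scaling 28% of all measured genes were lower by that much for BM monocytes minus cMoP. For blood monocytes minus cMoP 33.2% were. Of the other summary values, 105 moved by less than 1.5 times, and of the values of single members 413 did and 225 did not, with 10 changes of sign. Only main differences of at least 1 log2 unit could count among the 10, so smaller differences that changed sign are not included. In the comparisons with blood monocytes only the described members were followed. Depth is unknown, so a level listed at 0 sets no limit on expression.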
